A study of Homo sapiens with 6 samples.

Results

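The JNK and p38 kinase cascade is represented by 10 genes of the 23002 in the deposited expression table. They were taken by gene symbol as stress kinases that act downstream of the adaptor TRAF2, together with 1 kinase activator, and the rule uses no measured value. The genes were, however, chosen with earlier results of these data known. All 10 were found in the table and all 10 passed the filter on low values that left 11870 genes for testing. The cells were U251, a human glioblastoma cell line, in which a lentivirus delivered either a non-targeting control short hairpin RNA (sh-NC, 3 samples) or a short hairpin RNA against TRAF2 (sh-TRAF2, 3 samples). Both were stable lines selected with puromycin, and no TNF-α or other treatment is named for these samples. The sources do not name which of the TRAF2 hairpins was sequenced, nor whether the 3 samples of a group were separate infections or cultures of a single line, so p-values measure only the spread between these samples. Levels are in FPKM, fragments scaled to gene length and to sequencing depth, so they can be set side by side between samples. Between genes they depend on the gene lengths used, which are not given in the sources.

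Stress kinases work in tiers. A receptor-proximal MAP4K or an adaptor such as TRAF2 switches on a MAP3K, the MAP3K phosphorylates a MAP2K, and the MAP2K phosphorylates a MAP kinase on a threonine and a tyrosine of its activation loop. JNK is activated by MAP2K4 and MAP2K7, and p38 by MAP2K3, MAP2K6 and, in part, MAP2K4. Downstream of the TNF receptor, TRAF2 recruits the ubiquitin machinery that engages MAP3K7 (TAK1) and also binds MAP3K5 (ASK1). In glioma cells both branches are studied in stress responses, survival and migration. All of this signalling runs through protein modification, whereas the values here are levels of mRNA only, and neither kinase activity nor phosphorylation was measured.

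The loops that carry the phosphorylation sites are shown for the 3 MAP kinases because the residue between those sites differs between JNK and p38. Each line gives 30 coding bases of the GENCODE release 29 transcript (GRCh38), 5′ to 3′ on the strand of the gene, and the capitals mark the codons of the threonine, the residue between them, and the tyrosine.
MAPK8: agttttatgatgACGCCTTATgtagtgact
MAPK9: aacttcatgatgACCCCTTACgtggtgaca
MAPK14: gatgatgaaatgACAGGCTACgtggccact
The MAPK8 stretch lies at chr10:48420239-48420268 on the plus strand, in exon 5 of 11, and its capitals start at codon 183. The MAPK9 stretch lies at chr5:180249025-180249054 on the minus strand, in exon 6 of 12, also at codon 183. The MAPK14 stretch lies at chr6:36075878-36075907 on the plus strand, in exon 7 of 12, at codon 180. MAPK8 and MAPK9 encode threonine, proline and tyrosine, and share 23 of the 30 bases. MAPK14 encodes threonine, glycine and tyrosine, and shares 15 of 30 bases with each of the JNK genes.

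TRAF2 itself was read first, as a check of the labels. TRAF2 (chr9:136881912-136926607) stood at 15.1, 18.4 and 15.3 FPKM in the sh-NC samples and at 3.26, 3.22 and 3.33 FPKM in the sh-TRAF2 samples. The groups were far apart, with a log2 fold change of -2.27 (SE 0.079, limma adjusted p = 1.16e-06).

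Depth, as recovered from the FPKM steps, was slightly lower in every sh-TRAF2 sample. Reads on genes per sample numbered 35284048 to 36823562 in sh-NC and 33999558 to 34761466 in sh-TRAF2. Pearson's r of log2 FPKM over genes ran from 0.9928 to 0.9939 among sh-NC samples, from 0.9946 to 0.995 among sh-TRAF2 samples, and from 0.9794 to 0.9845 between groups. Of 8 measured glial and neural stem cell markers, 6 were above 1 FPKM in at least 1 sample. The 3 called markers all rose. SOX2, SOX9 and CD44 were not called (limma adjusted p = 0.0754, 0.177 and 0.0732), with log2 fold changes of 0.12, 0.11 and -0.07. VIM, the intermediate filament of mesenchymal and glioma cells, averaged 1582 FPKM in sh-TRAF2 (log2 fold change 0.35, limma adjusted p = 6.87e-05). NES (nestin), the filament of neural stem cells, went from 5.35 to 11.7 FPKM (log2 fold change 1.12, limma adjusted p = 1.91e-05). GFAP, the astrocyte filament, was low, at a mean of 0.467 FPKM in sh-NC and 1.18 FPKM in sh-TRAF2 (log2 fold change 1.11, limma adjusted p = 0.0382), and its groups overlapped. S100B and OLIG2 stayed under 1 FPKM in every sample. The summed level of these markers, most of it VIM, was 1459 to 1531 FPKM in sh-NC and 1810 to 1855 FPKM in sh-TRAF2. Of 9 measured markers of blood, endothelial, epithelial, liver and neural cells, 8 were under 1 FPKM in every sample. The exception was SYT1, a vesicle protein of neurons, which held nearly all of a sum of 24.2 to 27.2 FPKM in sh-NC and of 13.5 to 14.5 FPKM in sh-TRAF2. The part of these shifts in the results below was not tested.

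The 10 genes did not move as a block: 3 rose, 3 fell and 4 were not called. MAP4K4, MAP2K3 and GADD45B were higher in sh-TRAF2 cells, and MAP3K7, MAP2K4 and MAPK14 were lower. The mean differences ran from a fall of 24% in MAP2K4 to a rise of 28.6% in GADD45B, and none of the 10 genes reached an absolute log2 fold change above 1. A call here is an adjusted p under 0.05 in limma, with Benjamini-Hochberg adjustment over all 11870 genes. By that rule 44.6% of all tested genes were called, 23.7% as higher and 20.9% as lower, so the 6 of 10 called here show nothing particular to the cascade. Adding the fold threshold, 1.72% of all genes were called. The median log2 fold change of the 10 genes was -0.05, beside 0.02 over all tested genes. In bulk RNA, fewer cells that express a gene and less of its RNA per cell cannot be told apart.

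**Figure D1:**
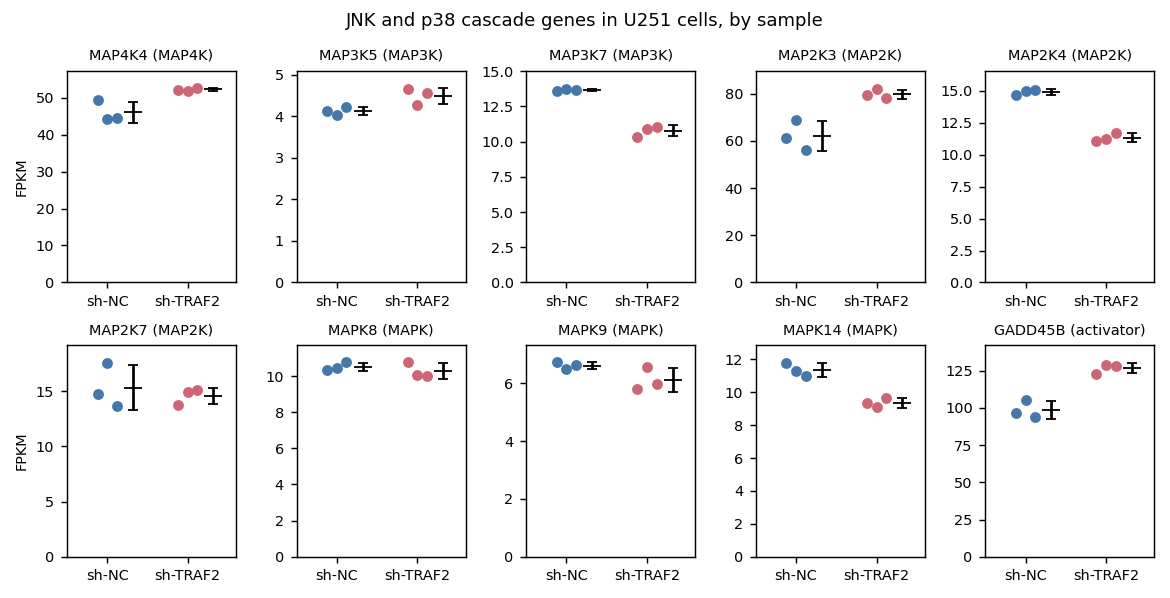
FPKM (vertical axis, linear, from 0) of each of the 10 cascade genes in the 3 sh-NC and the 3 sh-TRAF2 samples; points are samples, and the bar beside them is the mean with its SD. The groups separate for 7 genes and overlap for MAP2K7, MAPK8 and MAPK9.

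At the top of the cascade, MAP4K4 rose slightly. MAP4K4 (also HGK, chr2:101696850-101894689) is a MAP4K that feeds into the JNK branch and is known for its role in cell migration. It was measured at 49.2, 44.2 and 44.5 FPKM in sh-NC and at 52.2, 51.8 and 52.6 FPKM in sh-TRAF2. All sh-TRAF2 samples lay above all sh-NC samples, though the nearest were only a few FPKM apart. The log2 fold change was 0.18 (SE 0.047, 95% confidence interval 0.08 to 0.29, limma adjusted p = 0.0139), a rise of 13.4%. The call was lost with quantile normalization, where the log2 fold change was 0.12 (limma adjusted p = 0.0651).

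Of the pair of MAP3Ks that TRAF2 is known to engage, MAP3K7 fell and MAP3K5 was not called. MAP3K7 (TAK1, chr6:90513573-90587045), which relays TNF signals to JNK, p38 and NF-kappaB, was at 13.6, 13.8 and 13.7 FPKM in sh-NC and at 10.3, 10.9 and 11.1 FPKM in sh-TRAF2. The sh-NC values were almost the same, and every sh-TRAF2 sample was lower. MAP3K7 fell by 21.3%, with a log2 fold change of -0.34 (SE 0.047, 95% confidence interval -0.45 to -0.24, limma adjusted p = 0.000629).

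MAP3K5 (ASK1, chr6:136557047-136792518), the redox-sensitive MAP3K held inactive by thioredoxin, was the lowest of the 10 genes. Its levels were 4.12, 4.02 and 4.23 FPKM in sh-NC and 4.64, 4.27 and 4.56 FPKM in sh-TRAF2. The groups did not overlap, but the gap between the nearest samples was small and the gene was not called. Its log2 fold change was 0.12 (SE 0.062, 95% confidence interval -0.02 to 0.26, limma adjusted p = 0.153). These values rested on 955 to 1072 reads per sample. Of all tested genes, 55.5% had groups that did not overlap, against 7 of these 10.

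Among the MAP2Ks, the p38 activator MAP2K3 rose, the dual activator MAP2K4 fell and the JNK activator MAP2K7 was not called. MAP2K3 (MKK3, chr17:21284672-21315240) was at 61.4, 68.8 and 56.1 FPKM in sh-NC and at 79.4, 81.8 and 78.1 FPKM in sh-TRAF2. The sh-NC samples were spread more widely than the sh-TRAF2 samples, and the groups were apart. The log2 fold change was 0.37 (SE 0.068, 95% confidence interval 0.21 to 0.52, limma adjusted p = 0.003), a rise of 28.5%. Of the 50-base windows of its transcript, 3.50% also occurred in AC243725.1, so a small share of its reads could have been counted there.

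MAP2K4 (MKK4, chr17:12020824-12143830) showed the largest fall of the 10 genes. It was measured at 14.7, 14.99 and 15.1 FPKM in sh-NC and at 11.04, 11.3 and 11.7 FPKM in sh-TRAF2. The spread within each group was a small part of the gap between them. This gave a log2 fold change of -0.39 (SE 0.045, 95% confidence interval -0.50 to -0.29, limma adjusted p = 0.000263). The pseudogene MAP2K4P1 shares 7.28% of the transcript's 50-base windows, and how such reads were counted is not given in the sources used here.

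MAP2K7 (MKK7, chr19:7903843-7914478), which acts on JNK alone, was at 14.8, 17.6 and 13.6 FPKM in sh-NC and at 13.7, 14.9 and 15.1 FPKM in sh-TRAF2. The groups overlapped throughout, and sh-NC replicate 2 stood above all others. The log2 fold change was -0.06 (SE 0.089, 95% confidence interval -0.27 to 0.14, limma adjusted p = 0.585), and without sh-NC replicate 2 it turned to 0.04 (limma adjusted p = 0.657). On the other strand, AC010336.4 covers 12.6% of the exon bases of MAP2K7, and the use of strand in counting is not given.

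Of the MAP kinases, MAPK14 fell and neither JNK gene was called. MAPK14 (p38α, chr6:36027677-36111236), the main p38 kinase of most tissues, was at 11.8, 11.3 and 10.96 FPKM in sh-NC and at 9.33, 9.08 and 9.65 FPKM in sh-TRAF2. All sh-TRAF2 samples were lower than all sh-NC samples. MAPK14 thus had a log2 fold change of -0.27 (SE 0.051, 95% confidence interval -0.39 to -0.16, limma adjusted p = 0.00299).

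MAPK8 (JNK1, chr10:48306639-48439360) was at 10.3, 10.4 and 10.8 FPKM in sh-NC and at 10.8, 10.1 and 9.98 FPKM in sh-TRAF2. The ranges lay on top of each other. The log2 fold change was -0.03 (SE 0.051, limma adjusted p = 0.646), and its 95% confidence interval of -0.15 to 0.09 leaves room for a small change either way.

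MAPK9 (JNK2, chr5:180233143-180292099) was at 6.71, 6.48 and 6.63 FPKM in sh-NC and at 5.79, 6.56 and 5.96 FPKM in sh-TRAF2. Only sh-TRAF2 replicate 2 fell within the sh-NC range. For MAPK9 the log2 fold change was -0.12 (SE 0.062, 95% confidence interval -0.26 to 0.03, limma adjusted p = 0.166).

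GADD45B (chr19:2476122-2478259), a small stress-induced protein and NF-kappaB target that binds MAP3K4 to activate p38 and binds MAP2K7 to restrain JNK, was the most abundant of the 10 genes. It was at 96.7, 105 and 93.6 FPKM in sh-NC and at 123, 129 and 128 FPKM in sh-TRAF2. The groups were well separated. GADD45B rose by a log2 fold change of 0.36 (SE 0.047, 95% confidence interval 0.26 to 0.47, limma adjusted p = 0.000492).

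**Figure D2:**
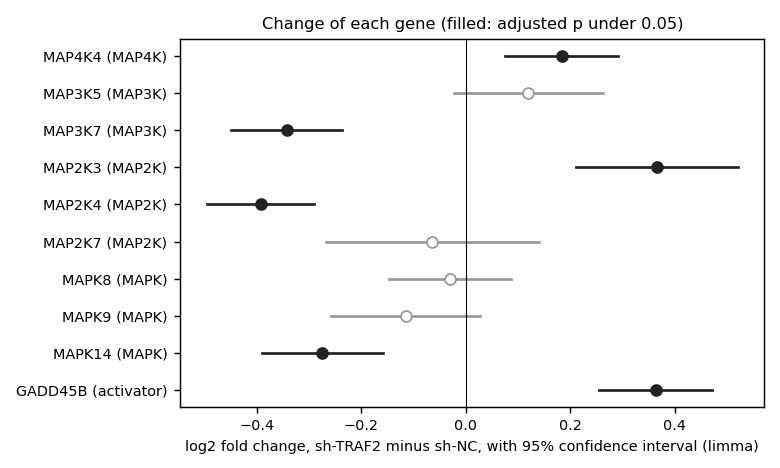
Log2 fold change of each cascade gene (horizontal axis, sh-TRAF2 minus sh-NC) with its 95% confidence interval from limma, ordered by tier from MAP4K to MAPK, with the activator last. Filled points are genes with an adjusted p under 0.05: 3 lie to the right of 0, 3 to the left, and the 4 open points have intervals that cross 0.

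The levels set the genes in an order that differed in 1 place between the groups. In sh-NC, GADD45B had the highest mean at 98.5 FPKM, followed by MAP2K3 at 62.1 FPKM and MAP4K4 at 46.0 FPKM. A middle group followed, with MAP2K7 at 15.3 FPKM, MAP2K4 at 14.9 FPKM, MAP3K7 at 13.7 FPKM, MAPK14 at 11.3 FPKM and MAPK8 at 10.5 FPKM. MAPK9 at 6.61 FPKM and MAP3K5 at 4.12 FPKM were lowest. Every neighbouring pair in this order was separated in all samples except MAP2K7 and MAP2K4, whose ranges overlapped.

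In sh-TRAF2 the top of the order was the same, at 127 FPKM for GADD45B, 79.8 FPKM for MAP2K3 and 52.2 FPKM for MAP4K4. MAP2K7 at 14.6 FPKM now lay above MAP2K4 at 11.3 FPKM in every sample. MAP2K4, MAP3K7 at 10.8 FPKM and MAPK8 at 10.3 FPKM overlapped with their neighbours. MAPK14 at 9.35 FPKM had passed below MAPK8, with no overlap, whereas in sh-NC it had lain above it. Because the gene lengths behind the FPKM are not given, which of these genes is the more abundant in either group is uncertain.

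A ratio between genes within a sample is not changed by multiplying that sample by a factor, apart from the small effect of a pseudocount, so 6 were computed, each on FPKM + 0.1. The log2 difference of a ratio equals the difference between the log2 fold changes of its genes. The ratios thus restate the gene results above and are no separate evidence. MAP2K3 over MAP2K4, the p38-specific activator that rose over the dual one that fell, had the largest difference. It was 4.17, 4.57 and 3.70 in sh-NC and 7.14, 7.21 and 6.62 in sh-TRAF2. The mean went from 4.14 ± 0.435 to 6.99 ± 0.319 (SD, n = 3), a log2 difference of 0.76 (p = 0.1 in an exact permutation test, two-sided, which is the lowest that 20 assignments allow, and 0.12 after adjustment over the 6 ratios).

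MAP4K4 over MAP3K7 went from 3.197 to 3.59 in sh-NC to 4.71 to 5.01 in sh-TRAF2, a log2 difference of 0.53. MAP3K5 over MAP3K7 went from 0.298 to 0.314 up to 0.397 to 0.455, a log2 difference of 0.46. MAP2K7 over MAP2K4, the ratio of the JNK activators, went from 0.904 to 1.17 up to 1.24 to 1.32, a log2 difference of 0.33. MAPK14 over MAPK8, the p38 gene over the JNK gene, was above 1 in every sh-NC sample and below 1 in every sh-TRAF2 sample, with a log2 difference of -0.24. Its place above or below 1 depends on the gene lengths used for the FPKM, whereas the difference between groups hardly does. None of these 4 overlapped between groups, and each had the smallest possible exact permutation p of 0.1 (0.12 adjusted). The share of other gene pairs whose ratios separate was not computed, and 55.5% of single genes separated. MAPK9 over MAPK8 did overlap, at 0.633 ± 0.0175 in sh-NC and 0.598 ± 0.0573 in sh-TRAF2 (SD, n = 3, two-sided exact permutation test, p = 0.5).

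**Figure D3:**
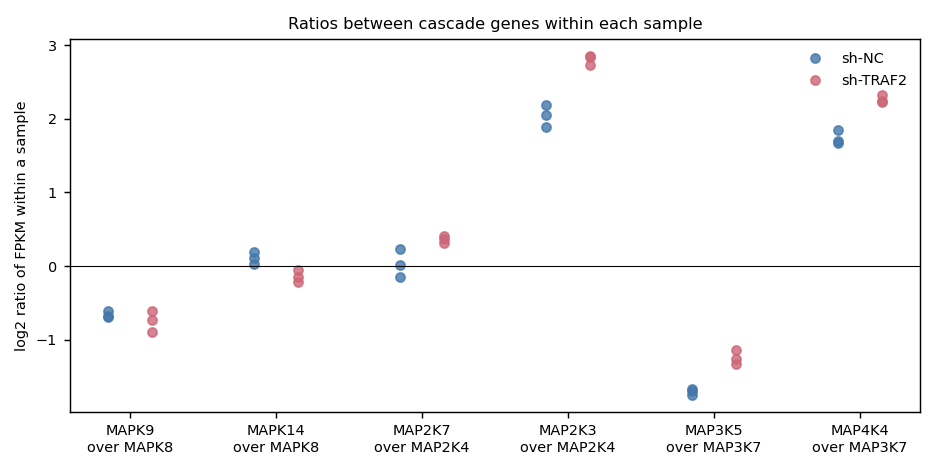
Log2 ratio of FPKM between pairs of cascade genes within each sample (vertical axis), with sh-NC in blue and sh-TRAF2 in red and 1 point per sample. The groups separate for 5 of the 6 ratios, most widely for MAP2K3 over MAP2K4, and overlap for MAPK9 over MAPK8. No share over other gene pairs was computed, so this count shows nothing particular to these pairs.

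Sums were taken for some tiers only, and not for the p38 activators, of which MAP2K3 rose. The JNK kinases MAPK8 and MAPK9 came to 17.1 ± 0.249 FPKM in sh-NC and 16.4 ± 0.395 FPKM in sh-TRAF2 (SD, n = 3). The JNK activators MAP2K4 and MAP2K7 came to 30.2 ± 2.05 and 25.9 ± 1.03 FPKM. The 4 p38 kinases, MAPK11 to MAPK14, came to 19.4 ± 0.699 and 16.5 ± 0.520 FPKM. All 3 sums were lower in every sh-TRAF2 sample, with mean differences of -4.25% for the JNK kinases, -14.3% for their activators and -14.6% for the p38 kinases (each two-sided exact permutation p = 0.1, the smallest possible). Of single tested genes, 55.5% also had groups that did not overlap. The sums only add up gene values and are no separate evidence, and neither JNK gene was called by itself.

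The tissue-restricted relatives of these genes were close to absent, and they are named here after their values were seen. MAP2K6, the other p38 activator, was at 0.0508 to 0.0884 FPKM, and MAPK10 (JNK3), the JNK of neurons, at 0.0358 to 0.0777 FPKM. MAPK13 (p38δ) was at 0.063 to 0.183 FPKM, and GADD45G had at most 1 read in any sample. MAPK12 (p38γ) was at 6.43 FPKM in sh-NC and 5.67 FPKM in sh-TRAF2, and MAPK11 (p38β) at 1.51 and 1.38 FPKM, and neither was called (limma adjusted p = 0.0944 and 0.613). Thus MAP2K3 was the main measured p38-specific MAP2K mRNA in these cells, and MAPK14 the most abundant p38 mRNA.

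The other kinases of the cascades were counted next, from a list written by role. The table held 27 of them, and 23 were tested: 4 were higher, 3 were lower and 16 were not called, so that 30.4% were called, beside 44.6% of all genes, with a median log2 fold change of -0.02. MAP4K2, a germinal centre kinase upstream of JNK, fell most, from 1.11 ± 0.0234 to 0.410 ± 0.0481 FPKM (mean ± SD of 3 samples), with a log2 fold change of -1.25 (limma adjusted p = 0.000336). It rested on 98 to 320 reads per sample, and with a pseudocount of 1 the log2 fold change was -0.58. MAP3K20 (ZAK), the MAP3K that senses stalled ribosomes, fell from 7.80 ± 0.280 to 5.57 ± 0.263 FPKM (log2 fold change -0.48, limma adjusted p = 0.000371). TAOK3, a MAP3K of the TAO family, rose from 3.29 ± 0.102 to 4.48 ± 0.169 FPKM (log2 fold change 0.43, limma adjusted p = 0.000998).

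Of the activators, adaptors and scaffolds, 75% of the 16 tested were called, beside 44.6% of all genes, with 7 higher, 5 lower and a median of 0.11. WDR62, a JNK scaffold of the centrosome and spindle pole, rose from 7.27 ± 0.405 to 12.03 ± 0.527 FPKM (log2 fold change 0.72, limma adjusted p = 5.71e-05). TAB3, a ubiquitin-binding partner of MAP3K7, fell from 3.92 ± 0.101 to 2.32 ± 0.0198 FPKM (log2 fold change -0.73, limma adjusted p = 8.27e-05). SQSTM1 (p62), an autophagy receptor and signalling scaffold, fell from 1982 ± 49.9 to 1581 ± 38.9 FPKM (log2 fold change -0.33, limma adjusted p = 9.4e-05).

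The other partners of MAP3K7, named after their values were seen, were called in part. TAB2 was at 65.7 ± 2.67 FPKM in sh-NC and 56.4 ± 1.10 FPKM in sh-TRAF2, a log2 fold change of -0.22 (limma adjusted p = 0.00297). TAB1 was at 4.59 ± 0.473 and 4.53 ± 0.380 FPKM and was not called (limma adjusted p = 0.887). GADD45A, a paralog of GADD45B and also named after its values were seen, was higher in sh-TRAF2 with a log2 fold change of 0.29 (limma adjusted p = 0.00137).

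Phosphatases and inhibitors were called in 12 of 19 tested genes (63.2%, beside 44.6% of all genes), with 3 higher, 9 lower (20.9% of all genes were lower) and a median of -0.10. The 3 genes with the smallest adjusted p were all dual-specificity phosphatases, a family that makes up much of this list, and all fell. The family did not fall as a whole. DUSP8, named after its values were seen, was called higher (log2 fold change 0.16, limma adjusted p = 0.0379). DUSP16, which dephosphorylates JNK and p38, fell from 5.49 ± 0.237 to 3.90 ± 0.0817 FPKM (log2 fold change -0.48, limma adjusted p = 0.000434). DUSP14 fell from 16.9 ± 0.790 to 12.7 ± 0.641 FPKM (log2 fold change -0.42, limma adjusted p = 0.000625). DUSP18 fell from 0.928 ± 0.0935 to 0.305 ± 0.0402 FPKM, a log2 fold change of -1.35 (limma adjusted p = 0.00053). It rested on 48 to 195 reads per sample, and the log2 fold change was -0.56 with a pseudocount of 1.

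Downstream kinases and substrates were called in 12 of 21 tested genes (57.1%, beside 44.6% of all genes), with 4 higher, 8 lower and a median of -0.10. JUN, the transcription factor that JNK phosphorylates, rose from 170 ± 5.40 to 226 ± 4.81 FPKM (log2 fold change 0.41, limma adjusted p = 6.04e-05). JUND, its relative, fell from 47.3 ± 4.15 to 32.6 ± 1.95 FPKM (log2 fold change -0.53, limma adjusted p = 0.000516). STMN1 (stathmin), a microtubule-destabilizing JNK substrate, rose from 67.1 ± 7.65 to 124 ± 8.91 FPKM (log2 fold change 0.89, limma adjusted p = 0.000114).

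By the gene ontology terms in the deposited table, 11 of 39 tested genes of the JNK cascade were higher and 12 lower, 1 of 11 of the p38MAPK cascade was higher and 4 lower, and 1 of 15 of the stress-activated MAPK cascade was higher and 7 lower. Over all tested genes 23.7% were higher and 20.9% lower. These terms hold 6, 4 and 5 of the 10 genes.

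**Figure D4:**
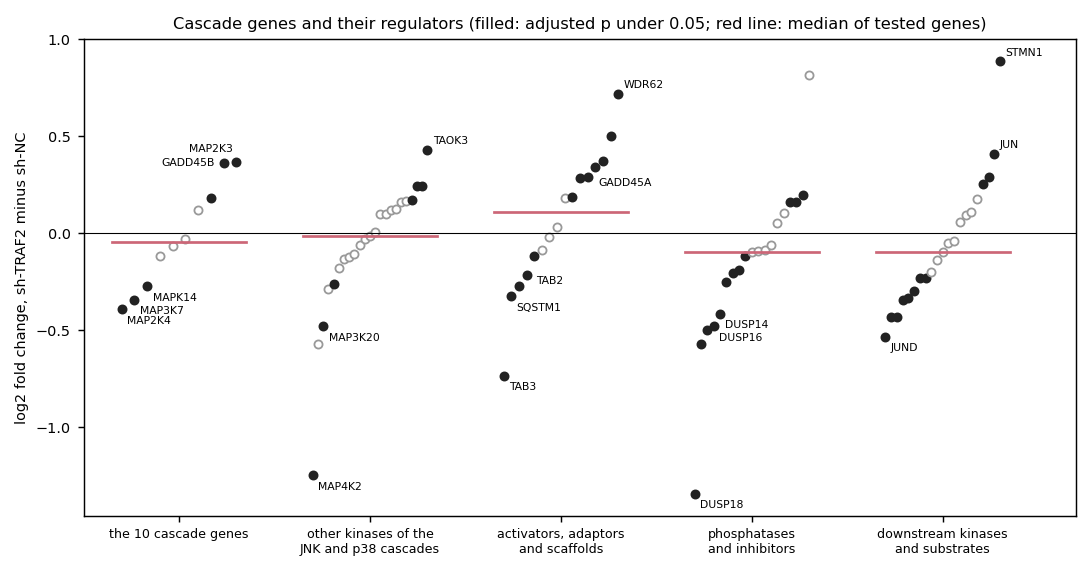
Log2 fold change (vertical axis, sh-TRAF2 minus sh-NC) of every tested gene of the cascade and of 4 related lists, with 1 point per gene; filled points have an adjusted p under 0.05 and red lines are medians. All the medians lie within 0.11 of 0, and MAP4K2 and DUSP18 are the only called genes of these lists past an absolute value of 1.

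Since a hairpin can also act on transcripts that match it in part, both TRAF2 target sequences of the study were matched to the transcripts of the 10 genes. Shown are, for sh-TRAF2#1, a 7-base stretch that recurs in the coding sequence of MAP3K7, and for sh-TRAF2#2 the runs of at least 11 bases. The rule for sh-TRAF2#1 is thus looser. Runs of 7 or 8 bases with sh-TRAF2#1 occurred in all 10 genes except MAPK8 and GADD45B. The longest in MAP3K7, of 8 bases, lies elsewhere, in its 3′UTR. A run of 8 bases in the coding sequence of MAPK14 is not shown either, so the MAP3K7 site is not the longest match. Below each target are the sites shown, aligned to it. The capitals mark only the run described, so that other bases in lower case can match too.
sh-TRAF2#1 target: cccttgcagATTCCACgccat
MAP3K7 site: cccctgatgATTCCACagata
sh-TRAF2#2 target: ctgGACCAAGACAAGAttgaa
MAP3K5 site: gaaGACCAAGACAAaattgtg
MAP2K4 site: tattgCCAAGACAAGAgatgc
The targets lie in the coding sequence of TRAF2, at chr9:136916579-136916599 (exon 7 of 11) and chr9:136920480-136920500 (exon 8). Positions in a target are counted from 1 at its 5′ end.

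In MAP3K7 the capitals lie at chr6:90523680-90523686, in coding exon 14 of 17 and in 5 of 5 coding transcripts, and the site shares 13 of 21 bases with the target. ATTCCAC was present in the coding sequence of 9.28% of 10600 tested genes with a coding transcript, and in the 3′UTR of 11.3% of them but of none of the 10 cascade genes. In MAP3K5 the shared run covers target bases 4 to 14 at chr6:136592207-136592217 (exon 23 of 30), and in MAP2K4 it covers bases 6 to 16 at chr17:12113323-12113333 (exon 7 of 11). Longer but common runs, of at least 8 bases, were shared with sh-TRAF2#1 by MAP3K7 and MAPK14 and by 46.5% of the 10600 genes, and with sh-TRAF2#2 by 7 of the 10 cascade genes and 56.8% of genes. A run of at least 11 bases with sh-TRAF2#2 was found in 1.48% of the 10600 genes, and with sh-TRAF2#1 in 0.972% and in none of the cascade genes. MAP3K7 and MAP2K4 fell and MAP3K5 was not called, and the part of these matches in the values was not tested.

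Promoters were read for the 10 genes in the RefSeq table (GRCh38.p14), which gives a short window around each start, and searched on both strands. The AP-1 motif, TGACTCA or TGAGTCA, was present in 1 of the 10 genes and in 4.96% of 9608 tested genes. It lay in MAP2K3, at chr17:21284670-21284676 and 41 bases before the RefSeq start. The NF-kappaB consensus was present in 2 of the 10 genes, MAP2K3 and MAPK14, and in 8.88% of tested genes. The cyclic AMP response element TGACGTCA was present in none of the 10 and in 3.99% of tested genes. The sites of the risen MAP2K3 and the fallen MAPK14 are shown on the strand of each gene, with the motif in capitals.
MAP2K3, AP-1: ggggcggggccTGAGTCAgcgcagttcggc
MAP2K3, NF-kappaB: cagttcggccGGGGTCTCCCcggcgctgcc
MAPK14, NF-kappaB: ctcggctctcGGAGAGTCCCgggagctgtt
The NF-kappaB matches lie at chr17:21284690-21284699 and chr6:36027735-36027744, and a further match lies before the other start of MAP2K3. These NF-kappaB matches lie before RefSeq starts but inside the GENCODE spans given above for the genes. The AP-1 match begins just before the span of MAP2K3. The same motif occurred in the windows of a gene that rose and a gene that fell. Binding was not measured, and the part of the motifs in the values was not tested.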

How the data were processed

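RNA-seq of 3 sh-NC and 3 sh-TRAF2 samples was analysed. The authors deposited FPKM values per gene and sample, as computed by the sequencing provider. The submitters' processing notes name HISAT2, HTSeq, DESeq2 and R 3.2.0, with no role. The genome build and annotation behind the FPKM are not given in the sources used here, nor is the use of strand. Columns sum to 349408 to 350440 in sh-NC and to 352745 to 353563 in sh-TRAF2. Samples were grouped by their labels, and all 6 columns were assigned.

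From these, log2(FPKM + 0.1) was tested with limma 3.58.1 in R 4.3.3 (eBayes with a trend, two-sided) over the 11870 genes whose mean FPKM reached 0.5, with Benjamini-Hochberg adjustment over all of them. The pseudocount pulls fold changes of low genes towards 0. Single values were compared with exact permutation tests over 20 assignments, which cannot give a p under 0.1. FPKM steps gave whole reads for 100% of the 20359 genes with values in 2 or more samples, and limma-voom on them was an alternative. For simulated tables, 97.9% of 1999 genes were recovered exactly. In a simulation over 11870 genes, 100 genes were changed by 0.3 on the log2 scale and another 100 by 1. Of these, 35% and 86% were called, with 8 unchanged genes called. Far fewer genes were changed there than the 44.6% called in the data. Its adjustment was therefore stricter, and these rates do not carry over to this comparison.

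The 10 genes and the other lists were chosen with earlier results of these data known. Named are TRAF2, the 10 genes, and for every other list of cascade genes the 3 lowest in adjusted p and those called past an absolute log2 fold change of 1. Genes of the gene ontology terms were only counted, and cell type markers were named after their values were seen. One of the other lists is not reported here. The fit was also run with another pseudocount (1, 0.01), without the filter or with a minimum of 1 FPKM, after scaling to TPM, by quantiles or by median ratios, with a replicate block, with untrended eBayes, and with each sample left out. Those for named genes outside the 10 were chosen after seeing the data. Positions and transcripts are from GENCODE release 29 (GRCh38), promoters from RefSeq, and hairpin targets from the study's supplementary table. Tests and plots ran in Python 3.11.15 (pandas 2.3.3, numpy 2.4.6, matplotlib 3.10.9, scipy 1.17.1).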

Additional observations from a re-analysis of the deposited data

How the results depend on the processing

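Of the alternative values of the 10 cascade genes, 158 kept their direction and their side of the threshold. The exceptions were MAP4K4 with quantile normalization (log2 fold change 0.12, limma adjusted p = 0.0651) and MAP2K7, which ran from -0.14 to 0.038 with each sample left out and was above 0 without sh-NC replicate 2. TRAF2 stayed between -2.33 and -2.01, and the 6 ratios moved by less than their spread. With the fold threshold as well, 0 of the 10 genes were higher and 0 lower. Without a filter, 4 activators, adaptors and scaffolds were higher. Leaving out each sample in turn gave 4 to 6 higher genes in that list, 2 to 4 higher kinases and 5 to 9 lower phosphatases and inhibitors. The lowest counts came without sh-NC replicate 1 for the kinases, without sh-TRAF2 replicate 3 for the phosphatases, and without either of these samples in turn for the activators. Among the uncalled relatives, TAB1 ran from -0.10 to 0.051 with each sample left out (above 0 without sh-NC replicate 2 or 3 or sh-TRAF2 replicate 1), and MAPK11 from -0.28 to 0.0036 (above 0 without sh-NC replicate 2).

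Replicate numbers did not pair the samples: same-numbered samples had correlations of deviations of -0.0812, 0.0722 and 0.0728. With the replicate block, 2912 genes were higher and 2539 lower, the calls of the 10 genes were the same, 5 other kinases were lower, and MAPK12 was called (limma adjusted p = 0.0338). Limma-voom on the recovered reads called 3022 genes higher and 2737 lower. The median of all genes moved by less than 0.1 under every scaling. The simulation changed far fewer genes than were called here, so its detection rates do not carry over to this fit. The confidence intervals of the genes not called give what their change could be.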
